A study of Ambystoma mexicanum with 12 samples.

Results

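The C1q/TNF-related genes of the axolotl spinal cord were followed through 4 groups of libraries. All rows of the deposited expression table whose symbol begins with C1QTNF were taken, up to a limit of 10 by mean level. The table of 15091 genes holds 7 of them, so the limit left none out. C1QTNF2 and C1QTNF9 were selected on their levels in these same libraries, which reversed between groups, so their values are given as a description, without a test. The members C1QTNF1, C1QTNF3, C1QTNF4, C1QTNF5 and C1QTNF7 entered by symbol alone.

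The study asked what miR-200a, a small RNA that represses target mRNAs, does in the intact and in the regenerating spinal cord. Uninjured control and 4 dpi control cords received a control inhibitor, while uninjured inhibitor and 4 dpi inhibitor cords received an antisense inhibitor of miR-200a. By the labels, the solution was injected into the central canal of Ambystoma mexicanum of 2 to 3 cm, a piece of cord was removed in the injured groups, and the injured region was collected after 4 days (4 dpi). The study's text describes electroporation for the sequenced cords and injection of the inhibitor in other experiments. Its methods give a larger body length than the labels. By the labels each of the 3 libraries per group pooled the tissue of 10 animals, and neither the strain nor the collection time of the uninjured cords is stated in the sources used here. The unit is TPM, in which a gene's reads are divided by its length and scaled so that each library sums to 1000000. Read depth is therefore unknown, and a gene can be listed at 0 because a library was shallow.

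C1QTNF genes encode secreted proteins of the adiponectin family. Most have a signal peptide, a collagen-like stalk and a globular C1q head, whose fold resembles that of tumor necrosis factor. They assemble into trimers and larger oligomers, and in mammals several circulate as hormones that act on metabolism, vessels and inflammation, in part through receptors shared with adiponectin and through the energy-sensing kinase AMPK. Axolotl RefSeq annotation (UKY_AmexF1_1) lists 9 C1QTNF symbols, of which 7 have a row in the expression table. Family sums, shares and ranks here therefore cover only these 7. The annotation places C1QTNF2 and C1QTNF9 as separate protein-coding genes on different chromosomes. The step that joined axolotl transcripts to human gene names is not given in the sources used here, so reads of related C1QTNF transcripts may be split between rows in a way that cannot be seen.

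The libraries contained transcripts of the tissue named in the labels. GFAP, the intermediate filament of ependymoglia, was present in all 12 libraries at 85.7 to 2335 TPM, and SOX2, a neural stem cell factor, at 17.9 to 232 TPM. Uninjured control libraries were the least alike, with correlations across genes of 0.82 to 0.908 between replicates, against 0.927 to 0.978 in the other groups. Neuron genes (18 listed) held 1.39% of TPM in uninjured control library 1 and 0.236% in library S2, whose title carries no replicate number. Skeletal muscle genes (20 listed) held 5.18% in library S2 and 1.33% in library 1. C1QTNF4 depended most on these libraries, and its values without them are given with it.

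C1QTNF2, a secreted regulator of lipid handling in mice, was abundant in uninjured control cords and scarce in injured control cords. Uninjured control library 1 had 41 TPM, library 5 had 28.5 TPM and library S2 had 105 TPM. At 4 dpi the control libraries 1, 5 and 6 had 2.48, 2.73 and 1.21 TPM. The control groups did not overlap, and the lowest uninjured library was far above the highest injured one. Uninjured inhibitor libraries 5, 6 and 7 had 7.4, 8.45 and 0.906 TPM. At 4 dpi the inhibitor libraries 5, 6 and 7 had 18.6, 30.3 and 32.5 TPM. Every 4 dpi inhibitor library thus lay above every uninjured inhibitor library and every 4 dpi control library. The group means were 58 ± 40.8 TPM in uninjured control (mean ± SD, n = 3 libraries in each group), 27.1 ± 7.43 TPM in 4 dpi inhibitor, 5.59 ± 4.09 TPM in uninjured inhibitor and 2.14 ± 0.815 TPM in 4 dpi control. In that order the first pair overlapped, as did the last pair, while 4 dpi inhibitor and uninjured inhibitor were apart. Without library S2 the mean of uninjured control was 34.8 TPM.

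C1QTNF9, which in mammals is the family member closest to adiponectin and acts on heart and vessels, was high in the same groups, although the order of the low groups differed. Uninjured control library 1 had 47.8 TPM, library 5 had 24.3 TPM and library S2 had 19.9 TPM. In 4 dpi control, libraries 1, 5 and 6 had 1.98, 0.798 and 0.278 TPM. Injured control libraries were all below the uninjured ones. In uninjured inhibitor, library 5 was listed at 0, library 6 at 1.17 TPM and library 7 at 0.2 TPM. At 4 dpi with the inhibitor, libraries 5, 6 and 7 had 17.1, 18.4 and 8.41 TPM. Only the scarce groups, 4 dpi control and uninjured inhibitor, overlapped, and uninjured control lay above 4 dpi inhibitor in every library. Means were 30.7 ± 15 TPM in uninjured control, 14.6 ± 5.43 TPM in 4 dpi inhibitor, 1.02 ± 0.87 TPM in 4 dpi control and 0.457 ± 0.627 TPM in uninjured inhibitor. Library S2 was the highest uninjured control library for C1QTNF2 and the lowest for C1QTNF9. Without it the C1QTNF9 mean of uninjured control was 36.1 TPM.

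**Figure D1:**
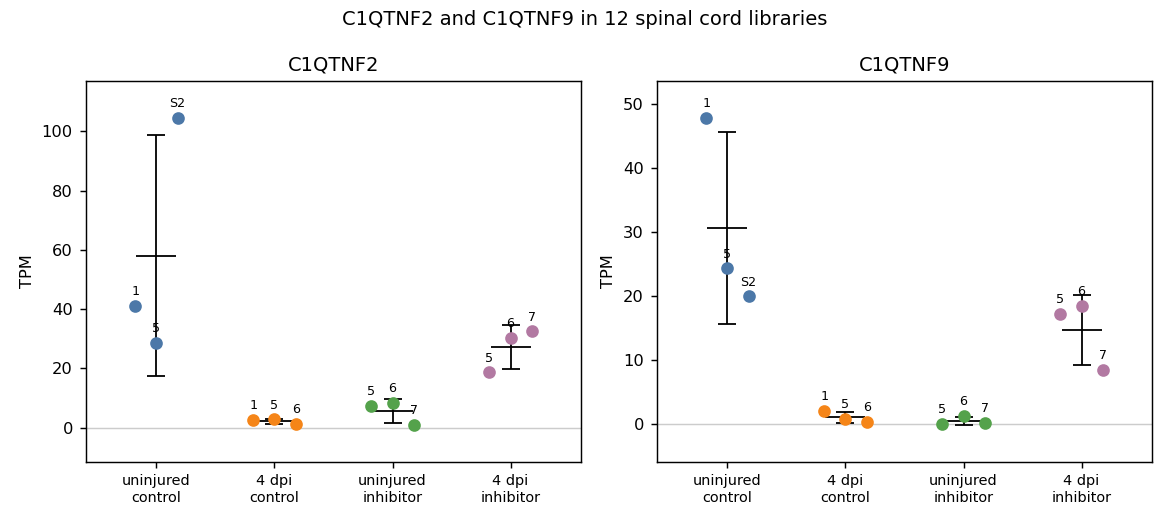
TPM of C1QTNF2 (left) and C1QTNF9 (right) in each of 12 libraries by group; points are libraries with their replicate name, horizontal bars are group means and whiskers are the SD (n = 3). Uninjured control and 4 dpi inhibitor libraries sit above all others, from 18.6 TPM up for C1QTNF2 and from 8.41 TPM up for C1QTNF9.

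Injury and inhibitor each went with low C1QTNF2 and C1QTNF9, and both together with high levels. Differences were fitted with limma on log2(TPM + 0.5), a scale that understates changes of scarce genes, and are given here without p-values because these contrasts chose the genes. For C1QTNF2 the fitted log2 difference was −4.30 (SE 0.65) for injury in control cords and −3.44 for the inhibitor in uninjured cords. It was 3.40 for the inhibitor at 4 dpi and 2.54 for injury with the inhibitor. For C1QTNF9 the fitted log2 differences were −4.42 (SE 0.56) for injury in control cords, −5.12 for the inhibitor in uninjured cords, 3.40 for the inhibitor at 4 dpi and 4.10 for injury with the inhibitor. The comparisons of injury in control and of the inhibitor without injury share the uninjured control libraries, so a high level there enters both. Once libraries were aligned by median-of-ratios scaling, the signs were the same, and C1QTNF2 moved to −2.57 for the inhibitor in uninjured cords. Without uninjured inhibitor library 7, the lowest of that group for C1QTNF2, the C1QTNF2 difference was −2.58 for the inhibitor in uninjured cords and 1.68 for injury with the inhibitor.

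The genes with the crossed pattern were counted over the whole table. C1QTNF2 and C1QTNF9 were chosen for this pattern, so nothing is read for them from the count. Every library of uninjured control and 4 dpi inhibitor lay above every other library for 4 of 14764 genes with at least 0.5 TPM in 3 libraries, which is 0.0271% of them. These were C1QTNF2, C1QTNF9, FNDC7, which encodes a protein with fibronectin type III domains, and PRSS1, a trypsinogen, the last of which was noticed only after its values were seen. The opposite arrangement held for 1 gene. The lowest library of the high groups was 2.2 times the highest library of the low groups for C1QTNF2, 4.26 times for C1QTNF9, 4.7 times for FNDC7 and 1.14 times for PRSS1. None of the 11 lists of cell type markers split the libraries this way in its summed TPM. With so few single genes meeting this arrangement, a list could hardly meet it, so nothing about cell types is read from that count. The 17 cartilage and notochord genes held 0.131 to 0.144% of TPM in uninjured control, 0.0649 to 0.161% in 4 dpi control, 0.0634 to 0.124% in uninjured inhibitor and 0.0728 to 0.103% in 4 dpi inhibitor. The 17 connective tissue genes held 0.248 to 0.379%, 0.324 to 0.585%, 0.206 to 0.399% and 0.46 to 0.479% in the same order. In both lists each gene was above 0 in at least some libraries. In pooled tissue, fewer cells of a type and less RNA per cell cannot be told apart.

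Over all 12 libraries, FNDC7 followed C1QTNF2 and C1QTNF9 most closely among the 9750 genes whose mean reached 5 TPM. Its mean of 6.97 TPM passes that minimum through library S2, while PRSS1, at a mean of 3.31 TPM, is left out by it. Pearson's r of log2(TPM + 0.5) over the 12 libraries was 0.891 with C1QTNF2 and 0.872 with C1QTNF9, a measure of likeness in which the 4 group levels and the library compositions are shared by all genes. FNDC7 had 6.64, 6.17 and 52 TPM in uninjured control libraries 1, 5 and S2. In 4 dpi control it had 0.494 to 0.885 TPM, in uninjured inhibitor 0.0545 to 1.01 TPM and in 4 dpi inhibitor 4.73 to 5.68 TPM. Library S2 was thus highest in uninjured control for FNDC7 as for C1QTNF2. Without S2, r was 0.87 with C1QTNF2 and 0.98 with C1QTNF9. C1QTNF9 was the second gene in likeness to C1QTNF2, at r = 0.857 and at 0.862 without S2. Both were chosen for the same reversal between these groups, so a high r and rank follow from that choice. Within groups the pair was much less alike, since deviations from the group means correlated at 0.109 between C1QTNF2 and C1QTNF9, at 0.568 between C1QTNF2 and FNDC7 and at 0.0608 between C1QTNF9 and FNDC7.

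The next genes in likeness to C1QTNF2 were PDE8A, a phosphodiesterase that breaks down cyclic AMP (r = 0.779), ZPLD1, a zona pellucida domain protein (r = 0.777), and COL21A1, a collagen chain (r = 0.761). For C1QTNF9 they were HOXC4, a homeobox factor of axial position (r = 0.812), PDE8A (r = 0.8) and DEDD, a death effector domain protein (r = 0.779). Deviations from the group means correlated with those of C1QTNF2 at 0.646 for PDE8A, 0.573 for ZPLD1 and 0.398 for COL21A1. With those of C1QTNF9 they correlated at 0.831 for HOXC4, 0.303 for PDE8A and 0.527 for DEDD. PDE8A ranged from 7.38 to 15.8 TPM in uninjured control and from 6.47 to 7.68 TPM in 4 dpi inhibitor, against 3.83 to 6.73 TPM in the other groups. ZPLD1 reached 723 to 1179 TPM in 4 dpi inhibitor, and its other groups overlapped, with 46.8, 349 and 547 TPM in uninjured control and 22.6, 256 and 15.3 TPM in uninjured inhibitor. COL21A1 had 18.2 TPM in uninjured control library S2 and 5.2 and 6.43 TPM in libraries 1 and 5.

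**Figure D2:**
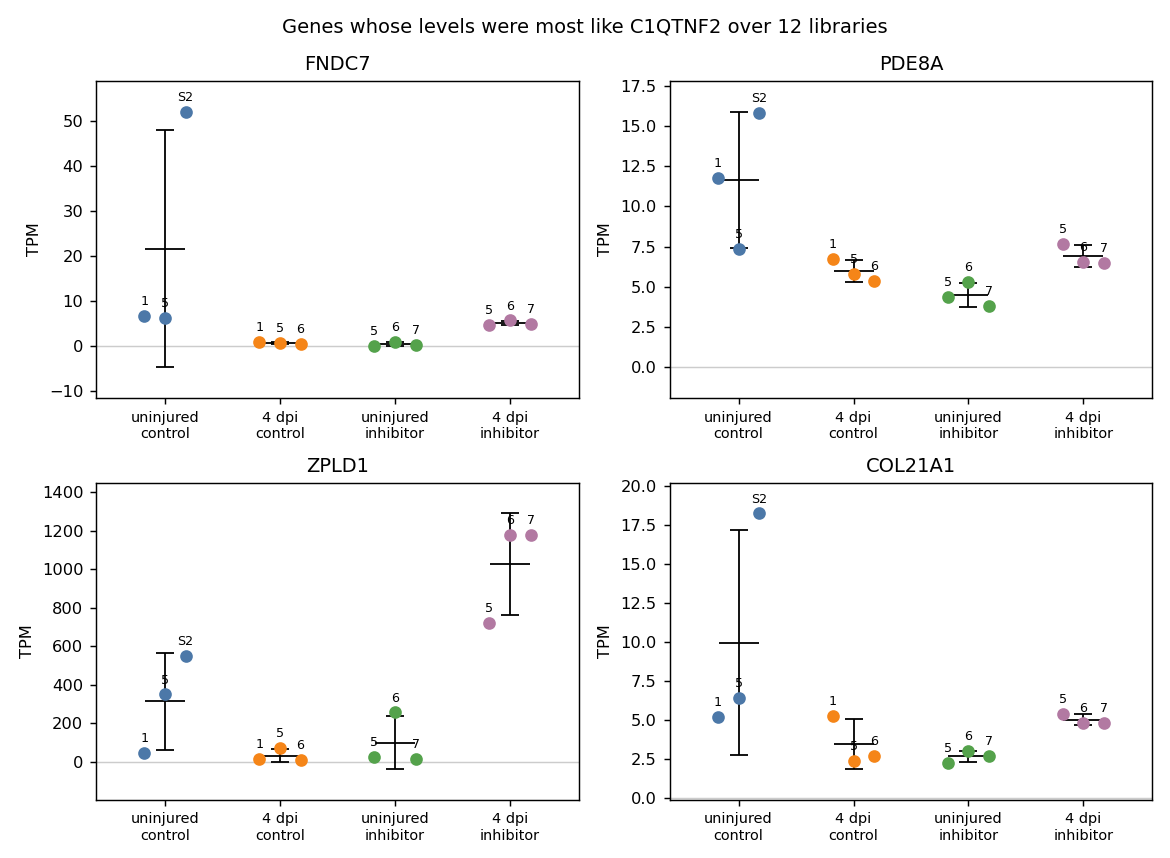
TPM of FNDC7, PDE8A, ZPLD1 and COL21A1 in 12 libraries by group; points are libraries with replicate names, horizontal bars are means and whiskers are the SD (n = 3). FNDC7 separates uninjured control and 4 dpi inhibitor (4.73 TPM and above) from the other groups (1.01 TPM and below).

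The ratio of C1QTNF2 to C1QTNF9 was not fixed. It was 0.858, 1.17 and 5.25 in uninjured control libraries 1, 5 and S2, and 1.26, 3.42 and 4.36 in 4 dpi control libraries 1, 5 and 6. Uninjured inhibitor libraries 6 and 7 had ratios of 7.21 and 4.53, and 4 dpi inhibitor libraries 5, 6 and 7 had ratios of 1.09, 1.65 and 3.86. In these 11 libraries the ranges of the ratio overlapped between high and low groups. C1QTNF9 was listed at 0 in uninjured inhibitor library 5, where C1QTNF2 was at 7.4 TPM.

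C1QTNF4, an atypical member with a pair of C1q domains and no collagen stalk that is known from the mammalian brain, had the highest mean of the family over all libraries, at 96.5 TPM, which uninjured control library 1 carried in large part. C1QTNF2 lay above it in uninjured control S2 and in every 4 dpi inhibitor library. It had 494, 151 and 74.1 TPM in uninjured control libraries 1, 5 and S2. In 4 dpi control, libraries 1, 5 and 6 had 130, 26.8 and 42.6 TPM. Uninjured inhibitor libraries 5, 6 and 7 had 77.2, 26 and 101 TPM. In 4 dpi inhibitor, libraries 5, 6 and 7 had 8.11, 13 and 12.6 TPM. The 4 dpi inhibitor libraries lay below every other library, while uninjured control overlapped both middle groups. In contrast to C1QTNF2 and C1QTNF9, C1QTNF4 was thus lowest where injury and inhibitor came together. How many of all genes lay lowest in that group without overlap was not counted. The median log2 fold change of all genes with the inhibitor at 4 dpi was −0.62, so nothing particular to C1QTNF4 is read from it. The log2 fold change of C1QTNF4 with the inhibitor at 4 dpi was −2.22 (SE 0.70, adjusted p = 0.0724 from limma over all genes), and that of injury with the inhibitor was −2.37 (adjusted p = 0.132). Without injury the inhibitor gave −1.58 (adjusted p = 0.0711), and injury in control gave −1.73 (adjusted p = 0.403). None passed the test, and after median-of-ratios scaling the inhibitor's values were −1.59 at 4 dpi (adjusted p = 0.197) and −0.64 without injury (adjusted p = 0.436). For injury in control, the C1QTNF4 value was −0.99 without uninjured control library 1, −2.35 without S2 and −2.37 without 4 dpi control library 1 (adjusted p = 0.691, 0.114 and 0.113 from limma). For the inhibitor without injury it was −0.84 without uninjured control library 1 (adjusted p = 0.3), and at 4 dpi it was −1.57 without 4 dpi control library 1 (adjusted p = 0.291). In the other direction, the call at 4 dpi was gained when uninjured control library 1 (adjusted p = 0.0298) or S2 (0.0442), or 4 dpi control library 5 (0.0486), was left out. Without injury it was gained when library S2 was left out (−2.20, adjusted p = 0.0185), and for injury with the inhibitor when uninjured inhibitor library 6 was left out (−2.95, adjusted p = 0.0485).

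Markers of ependymoglia and neurons also had their lowest summed levels in 4 dpi inhibitor. That was not particular to these lists. The mean of 4 dpi inhibitor was also the lowest for myelin and Schwann cell (0.122% of TPM) and skeletal muscle genes (0.792%). The same held for cartilage and notochord (0.0913%) and adipocyte genes (0.011%). In these other lists the 4 dpi inhibitor libraries overlapped with other groups. The 15 genes of the ependymoglia and neural stem cell list held 0.129 to 0.506% of TPM in uninjured control, 0.13 to 0.258% in 4 dpi control, 0.12 to 0.17% in uninjured inhibitor and 0.0946 to 0.108% in 4 dpi inhibitor. GFAP averaged 1275 ± 965 TPM in the uninjured control group and 106 ± 25.1 TPM in the 4 dpi inhibitor group (SD, n = 3). Abundant genes such as GFAP weigh most in the sum, and not every gene of the list went this way. NES was highest in 4 dpi inhibitor, at 200 to 222 TPM against 57.3 to 191 TPM in the other groups. VIM had 383 to 536 TPM in 4 dpi inhibitor and 230 to 465 TPM in uninjured control. Of the 15 genes, 9 were lower with the inhibitor without injury, where 42% of all genes were. None was called in the other comparisons, where at most 1.88% of all genes were. S100B was listed at 0 in 6 or more libraries. The 18 neuron genes held 0.236 to 1.39% in uninjured control and 0.121 to 0.144% in 4 dpi inhibitor. The part of these shifts in C1QTNF4 was not tested.

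**Figure D3:**
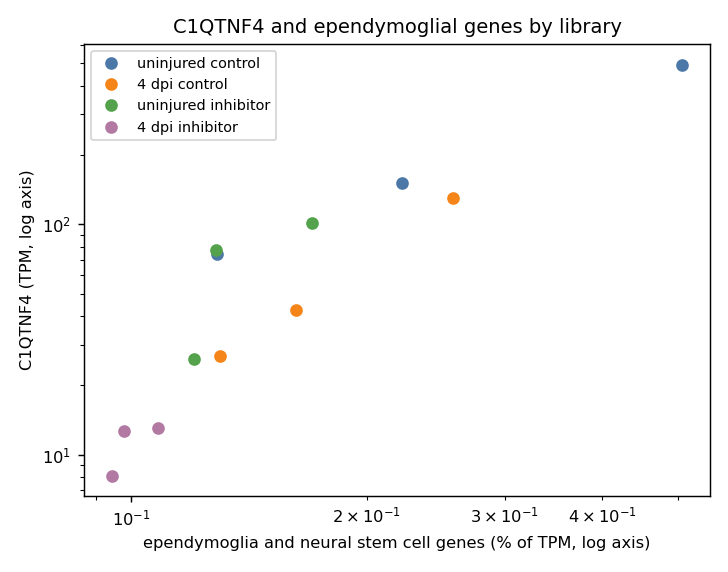
C1QTNF4 (TPM, log axis) against the share of TPM in 15 ependymoglia and neural stem cell genes (percent, log axis); each point is 1 of 12 libraries, coloured by group. The 4 dpi inhibitor libraries are lowest on both axes (8.11 to 13 TPM and 0.0946 to 0.108%), and uninjured control library 1 is highest on both (494 TPM and 0.506%).

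None of the remaining members passed the test in any comparison. C1QTNF3, known from growth plate cartilage in mammals, had 10.7, 28.4 and 13.8 TPM in uninjured control libraries 1, 5 and S2 and between 6.69 and 19.6 TPM in the other groups. C1QTNF1, which is made by vessels and acts on platelets in mammals, had means of 14.8 ± 6.04 TPM in uninjured control, 14.7 ± 2.59 TPM in 4 dpi control, 10.5 ± 1.14 TPM in uninjured inhibitor and 7.9 ± 2.88 TPM in 4 dpi inhibitor (SD, n = 3). The highest 4 dpi inhibitor library for C1QTNF1 had 11.2 TPM and the lowest 4 dpi control library 12.3 TPM, so these groups did not overlap, with a log2 fold change of −0.90 (SE 0.33, adjusted p = 0.0977 from limma). That change lay 0.28 below the median of all genes. C1QTNF7, described in adipose tissue of mice, stayed between 1.53 and 5.37 TPM in all libraries. C1QTNF5, mutated in a human retinal degeneration, was the scarcest member. It was listed at 0 in uninjured control libraries 1 and 5 and in uninjured inhibitor libraries 5 and 7. Its remaining uninjured libraries had 1.26 TPM (control S2) and 0.877 TPM (inhibitor 6). At 4 dpi it had 2.11, 0.996 and 2.6 TPM in control libraries and 3.62, 1.31 and 1.24 TPM in inhibitor libraries. For C1QTNF5 the injured and uninjured inhibitor groups did not overlap, but the nearest values, 1.24 and 0.877 TPM, were both near 0. The log2 fold change of 1.74 did not pass the test (adjusted p = 0.198), nor did that of 1.59 in control cords (adjusted p = 0.39). How many of all genes did not overlap between such groups was not counted. RefSeq annotation places C1QTNF5 beside MFRP in the axolotl, and MFRP is not analysed here.

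**Figure D4:**
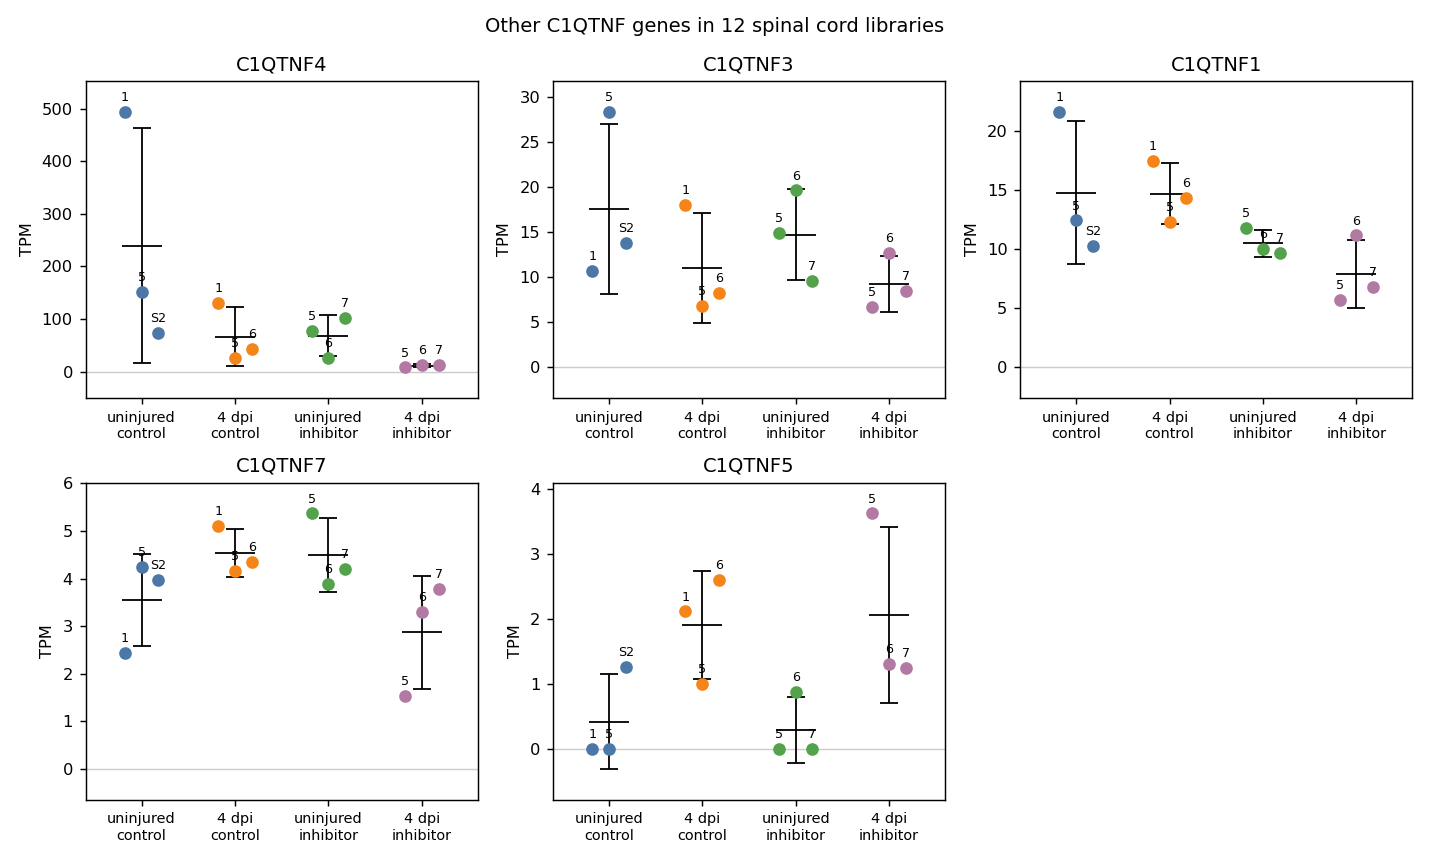
TPM of C1QTNF4, C1QTNF3, C1QTNF1, C1QTNF7 and C1QTNF5 in 12 libraries by group; points are libraries with replicate names, horizontal bars are means and whiskers are the SD (n = 3), and scales differ between panels. C1QTNF4 is lowest in 4 dpi inhibitor (8.11 to 13 TPM), and C1QTNF5 is listed at 0 in 4 uninjured libraries.

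Set against all genes, the members other than C1QTNF2 and C1QTNF9 gave no call in any comparison. A gene was called at an adjusted p under 0.05 from limma and an absolute log2 fold change above 1. All 7 members passed the filter on low values. Injury in control cords called 0.935% of the genes tested (0.874% higher and 0.061% lower), and none of these 5 members. The inhibitor without injury called 45.3% (3.32% higher and 42% lower), and again none of the 5. With the inhibitor at 4 dpi 1.88% were called (0.21% higher and 1.67% lower), and injury with the inhibitor called 0.433% (0.406% higher), in both cases without any of the 5. At an unadjusted p under 0.05, the share of all genes was 10.5%, 61.8%, 32.4% and 17.6% in these comparisons. Among the 5, C1QTNF4 was under that limit in each of these comparisons. C1QTNF5 was under it for injury in control and for injury with the inhibitor, and C1QTNF1 for the inhibitor at 4 dpi. The 5 are few, so a count of 0 calls is not read as a difference from the background. C1QTNF2 and C1QTNF9 were lower with injury in control and with the inhibitor without injury and higher with the inhibitor at 4 dpi, which is what chose them, and nothing is read from those counts.

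Most genes were lower with the inhibitor on the TPM scale, which bears on how the family is read. The median log2 fold change of all genes was −0.997 without injury and −0.62 at 4 dpi, and median-of-ratios scaling brought these to −0.18 and −0.06. Of the genes called, 92.7% of 6691 were lower without injury and 88.8% of 277 at 4 dpi. After scaling these shares were 46.7% of 4169 and 0% of 11. For injury with the inhibitor the lower share was 6.25% and 38.6% after scaling. Relative to the median of all genes, C1QTNF1, C1QTNF3, C1QTNF5 and C1QTNF7 lay 0.59, 0.81, 0.88 and 1.32 higher with the inhibitor without injury, and C1QTNF4 lay 0.58 lower. On the deposited scale C1QTNF1 and C1QTNF3 were at −0.41 and −0.19, and both turned positive after scaling, at 0.51 and 0.73. C1QTNF7 was at 0.32 (adjusted p = 0.455) on the deposited scale and at 1.15 after scaling, where it passed the test (adjusted p = 0.0328). C1QTNF2 and C1QTNF9 lay 2.44 and 4.12 below the median without injury and 4.02 and 4.03 above it at 4 dpi.

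**Figure D5:**
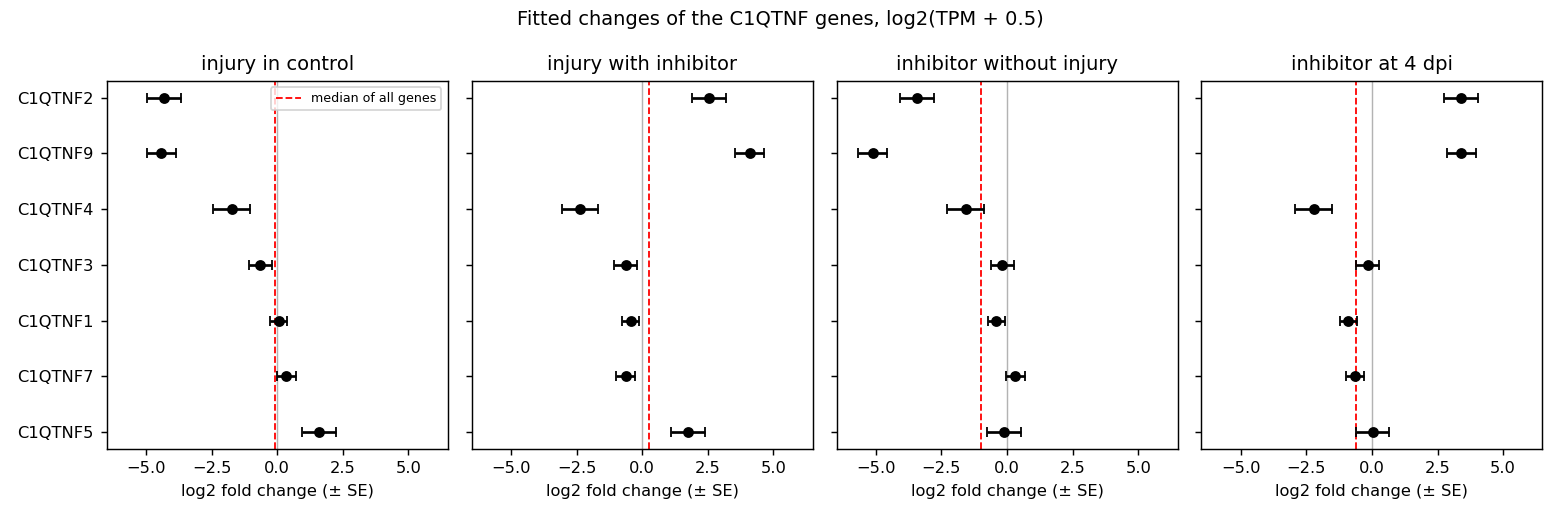
Fitted log2 fold changes of 7 C1QTNF genes in 4 comparisons; points are limma estimates on log2(TPM + 0.5), whiskers are standard errors, and the red dashed line is the median of all genes tested. C1QTNF2 and C1QTNF9 are at −4.30 and −4.42 for injury in control and at 3.40 and 3.40 for the inhibitor at 4 dpi, while C1QTNF4 lies between −2.37 and −1.58 in all comparisons.

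Whether the inhibitor's effect differed between injured and uninjured cords was examined with an interaction term, called on the adjusted p only. Over all genes 4 were called (0.0271%, of which 50% were negative, or 75% after median-of-ratios scaling), beside 6.7% with an unadjusted p under 0.05. The other 5 members were not among them. Their interaction values were −0.49 for C1QTNF1, 0.02 for C1QTNF3, −0.64 for C1QTNF4, 0.15 for C1QTNF5 and −0.97 for C1QTNF7 (SE 0.47 to 0.99, adjusted p = 0.658 to 0.99 from limma), against a median of 0.31 over all genes. With these standard errors, differences of a log2 unit could not be told from none, least of all in C1QTNF4, which had the largest SE. C1QTNF2 and C1QTNF9 had fitted interaction values of 6.84 and 8.52, given without a test.

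All 7 members summed to 365 ± 219 TPM in uninjured control, 102 ± 66 TPM in 4 dpi control, 104 ± 30 TPM in uninjured inhibitor and 75.1 ± 14.4 TPM in 4 dpi inhibitor (SD, n = 3). C1QTNF2 and C1QTNF9 made up 14.4 to 54.6% of the summed TPM of these 7 members in uninjured control and 2.02 to 6.46% in 4 dpi control. They made up 0.878 to 13.7% in uninjured inhibitor and 53.9 to 58.2% in 4 dpi inhibitor. These shares restate the levels on which the pair was selected. C1QTNF4 held 13.2 to 17.1% of the sum of the 7 in 4 dpi inhibitor and 32.5 to 80.5% in the other libraries. The members C1QTNF1, C1QTNF3, C1QTNF5 and C1QTNF7 summed to 36.4 ± 8 TPM in uninjured control, 32.2 ± 9.48 TPM in 4 dpi control, 30 ± 5.79 TPM in uninjured inhibitor and 22.1 ± 5.7 TPM in 4 dpi inhibitor (SD, n = 3). This sum ranged from 29.3 to 45 TPM in uninjured control and from 17.6 to 28.5 TPM in 4 dpi inhibitor, which did not overlap. The share of all genes without overlap between these groups was not counted. No median over all genes was fitted between these groups. Against 4 dpi control, the median log2 fold change of all genes in 4 dpi inhibitor was −0.62. Nothing particular to the family is therefore read from this sum.

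Of 18 relatives that share the C1q head, 17 were tested. C1QB and C1QC were higher with injury in control and with the inhibitor without injury. C1QC, a chain of the complement component C1q made by macrophages, had 45.7, 64.9 and 12.8 TPM in uninjured control libraries 1, 5 and S2, and 178 to 257 TPM in 4 dpi control. With the inhibitor it had 165 to 233 TPM without injury and 241 to 336 TPM at 4 dpi. C1QC rose with injury in control (log2 fold change 2.63, adjusted p = 0.00966 from limma) and with the inhibitor without injury (2.58, adjusted p = 0.00195). C1QB, another chain, rose likewise, by 2.26 (adjusted p = 0.0112) and by 1.99 (adjusted p = 0.00275). At 4 dpi C1QB had 11.6 to 18.5 TPM in control and 13.2 to 13.9 TPM with the inhibitor. C1QA, the remaining chain, was called in neither comparison. It had 0.879 to 48.7 TPM in uninjured control, 87.2 to 129 TPM in 4 dpi control, 20.8 to 40 TPM in uninjured inhibitor and 86.2 to 124 TPM in 4 dpi inhibitor. The 21 leukocyte and macrophage genes held 0.0545 to 0.137% of TPM in uninjured control, 0.196 to 0.278% in 4 dpi control, 0.1 to 0.124% in uninjured inhibitor and 0.245 to 0.29% in 4 dpi inhibitor, and each was above 0 in some libraries. Their part in the C1QB and C1QC values was not tested. COL10A1, the collagen of hypertrophic cartilage, was listed at 1.51, 1.42 and 4.45 TPM in 4 dpi control libraries 1, 5 and 6 and at 0 in the other 9 libraries. It passed the filter on low values only through the libraries where it is high, so its calls for injury in control and for the inhibitor at 4 dpi follow from the filter and are set aside. MMRN2, an endothelial matrix protein, COL8A1, a collagen of vessel walls, and CBLN2, a synaptic organizer, were lower with the inhibitor without injury (adjusted p = 0.00671, 0.0364 and 0.0294). COL8A1 had group means of 19 ± 12.1 TPM in uninjured control, 10.9 ± 6.96 TPM in 4 dpi control, 6.17 ± 3.4 TPM in uninjured inhibitor and 17.1 ± 3.27 TPM in 4 dpi inhibitor (SD, n = 3). The high and low groups of COL8A1 overlapped, and its interaction value of 2.33 did not pass the test (adjusted p = 0.658 from limma). With COL10A1 set aside, 2 relatives were higher with injury in control and none lower, where 0.874% and 0.061% of all genes were. With the inhibitor without injury 2 were higher and 3 lower, where 3.32% and 42% of all genes were. None was called with the inhibitor at 4 dpi, where 1.88% of all genes were. The median log2 fold change of the 17 was −0.48 with the inhibitor without injury, beside −0.997 for all genes. None of the 17 was called for injury with the inhibitor or in the interaction, where 0.433% and 0.0271% of all genes were.

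ADIPOQ, adiponectin itself, had 43.4, 219 and 121 TPM in uninjured control libraries 1, 5 and S2, so its spread there was wide. It had 85.6 to 97.7 TPM in 4 dpi control, 82.1 to 90.1 TPM in uninjured inhibitor and 54.6 to 77.7 TPM in 4 dpi inhibitor. No comparison of ADIPOQ passed the test (adjusted p = 0.36 to 0.897 from limma over 5 comparisons).

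Of 11 receptors and binding partners, 4 were lower with the inhibitor without injury, where 42% of all genes were. ADIPOR2, a receptor of adiponectin, had 20.3, 21.6 and 11.4 TPM in uninjured control libraries 1, 5 and S2, and 4.25, 6.79 and 2.7 TPM in uninjured inhibitor libraries 5, 6 and 7. The groups did not overlap, and the share of all genes without overlap between them was not counted. ADIPOR2 fell by 1.87 on the log2 scale (SE 0.35, adjusted p = 0.00237 from limma). ADIPOR1, the receptor linked to C1QTNF9 in mammals, was at 120 to 292 TPM in all libraries and passed in no comparison (−0.58 for the inhibitor without injury, adjusted p = 0.08). CDH13, T-cadherin, which binds adiponectin on vessels, had 113, 32 and 18.1 TPM in the uninjured control libraries, against 5.53, 16.3 and 5.61 TPM with the inhibitor, and fell by 2.27 (adjusted p = 0.0122). NRXN2, a neurexin, was lower too (adjusted p = 0.0143). The other 7 did not pass. The median of the list was −1.01, next to −0.997 for all genes. None of the list was called in the other comparisons, where at most 1.88% of all genes were.

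With 42% of all genes lower with the inhibitor without injury, 8 of 13 AMPK pathway genes were lower there and 5 did not pass. Those that fell included PRKAA2, a catalytic subunit (−2.33, adjusted p = 0.00216 from limma), STK11, the kinase that activates AMPK (−2.22, adjusted p = 0.00239), and PRKAB1, a regulatory subunit (−1.58, adjusted p = 0.00464). Of 18 genes that fold and export collagen-like proteins, 8 were lower and 10 did not pass, with PLOD1, a lysyl hydroxylase (−2.87, adjusted p = 0.003), P4HA3, a prolyl hydroxylase subunit (−1.97, adjusted p = 0.00308), and SEC24D, a vesicle coat protein (−2.42, adjusted p = 0.00325), having the smallest adjusted p. The medians were −1.29 and −0.94, beside −0.997 for all genes. In neither list was a gene called for injury in control, for injury with the inhibitor, for the inhibitor at 4 dpi or in the interaction. At most 1.88% of all genes were called in these comparisons.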

How the data were processed

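RNA of 12 pools of axolotl spinal cord was sequenced on an Illumina instrument after Trizol extraction. The authors deposited TPM per gene. Tools named in the submitters' processing notes are RSEM 1.1.6, Bowtie 0.12.1 and DESeq2 1.16.1, with no roles. Transcriptome and build: not given in the sources used here. Of 15091 symbols, 25 appeared as dates and were recovered through the paired identifier. TPM hold no read depth, so no count model was fitted.

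The 14764 genes reaching 0.5 TPM in 3 or more libraries were fitted on log2(TPM + 0.5) in limma 3.58.1 (R 4.3.3) with the 4 groups, all 12 libraries and an intensity-dependent variance prior, and p-values were adjusted by Benjamini-Hochberg per comparison. The code was tested on simulated data. Figures were drawn with matplotlib 3.10.9. P-values measure the spread between these pools.

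Members and gene lists were chosen with earlier results of these data known. Named list genes have the smallest adjusted p in a comparison (up to 3 per list, or every called gene where a list has 5 or fewer). Genes of similar profile are the 5 with the highest r among the 9750 genes whose mean reached 5 TPM.

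Alternatives were pseudocounts of 1 and 0.1, quantile and median-of-ratios normalization, a minimum of 2 TPM or none, a replicate block, fits restricted to the groups being compared, and each library left out. Leaving out uninjured control libraries 1 and S2 together was added after the values were seen. No protein or transcript sequences were used here. Of the called receptors and binding partners, 1 is not reported by name.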

Additional observations from a re-analysis of the deposited data

Results flagged for a closer look

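The inhibitor's effect pointed in opposite directions in uninjured and in injured cords for C1QTNF2, C1QTNF9, FNDC7 and PRSS1: every uninjured inhibitor library lay below every uninjured control library, and every 4 dpi inhibitor library lay above every 4 dpi control library. The fitted difference between the effects on the log2 scale was 6.84 for C1QTNF2, 8.52 for C1QTNF9, 6.21 for FNDC7 and 4.10 for PRSS1. C1QTNF2 and C1QTNF9 were chosen for this pattern and FNDC7 and PRSS1 for resembling it, so no test is read in favour of any of them. FNDC7 and PRSS1 were in the interaction fit over all genes and were not among the 4 called. For PRSS1 the adjusted p was 0.253 from limma's interaction test.

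LYZ, lysozyme, and PLBD1, a phospholipase of granulocytes, had a smaller difference between inhibitor and control in injured than in uninjured cords by limma's interaction test, at −1.97 (adjusted p = 0.00857) and −2.98 (adjusted p = 0.0116). LYZ rose by 3.00 without injury and by 1.03 at 4 dpi on the log2 scale (adjusted p = 1.98e-06 and 0.0436). PLBD1 rose by 3.45 without injury (adjusted p = 4.02e-05), and its value at 4 dpi was 0.48 (adjusted p = 0.214). Both belong to the list of 21 leukocyte and macrophage genes, of which the other 19 did not pass in the interaction. Interaction values in that list ranged from −2.98 to 3.43, and 0.0271% of all genes were called. Without 4 dpi control library 6 only 1 gene was called in the interaction and 0% were lower, so neither LYZ nor PLBD1 passed.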

How the results depend on the processing

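C1QTNF2 and C1QTNF9 kept their signs in all 5 comparisons under every alternative run. Their high and low groups did not overlap, so leaving out a library or changing the pseudocount or filter could not reverse a sign. The pair was also chosen for this pattern, so nothing is read from the kept signs. The sizes and the number of genes called over the whole table did not stay fixed, and the cause was not tested. With each library left out in turn, C1QTNF2 spanned −3.91 to −2.58 for the inhibitor without injury, 1.68 to 3.01 for injury with the inhibitor and 5.98 to 7.31 in the interaction. C1QTNF2 was at −2.57 under median-of-ratios scaling, −2.43 under quantile normalization and −2.34 with the replicate block for the inhibitor without injury. C1QTNF9 for the inhibitor without injury was at −4.42 and −6.41 with pseudocounts of 1 and 0.1 and at −4.18 under quantile normalization. It was at 4.09 at 4 dpi under quantile normalization, at 5.37 for injury with the inhibitor with a pseudocount of 0.1, and at 7.40 and 10.38 in the interaction with pseudocounts of 1 and 0.1.

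C1QTNF1 for injury in control (0.05) was at −0.17 with the replicate block and spanned −0.17 to 0.35 with libraries left out. For the inhibitor without injury, scaling by median of ratios and quantiles put C1QTNF1 at 0.51 and 0.64 and C1QTNF3 at 0.73 and 0.86, and quantiles put C1QTNF5 at 0.27 (0.65 with the replicate block, 0.49 without uninjured control libraries 1 and S2). At 4 dpi C1QTNF3 was at 0.45 and 0.50 under the scalings and at 0.0097 with the block, and C1QTNF7 at 0.043 under quantiles. In the interaction C1QTNF3 was at −0.28 and −0.36 under the scalings, and C1QTNF5 at −0.37 with the block and −0.46 without libraries 1 and S2. With single libraries left out, the interaction spanned −0.37 to 0.43 for C1QTNF3, −1.38 to 0.0052 for C1QTNF4 and −0.46 to 0.64 for C1QTNF5, the inhibitor without injury −0.47 to 0.21 for C1QTNF3 and −0.61 to 0.49 for C1QTNF5, and the inhibitor at 4 dpi −0.43 to 0.24 for C1QTNF3 and −0.37 to 0.25 for C1QTNF5. None of these reversed values passed the test in either form.

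The number of genes called for injury in control (138) was 5 in a fit of the libraries compared, 928 with the replicate block and 85 to 311 with a library left out. For the inhibitor without injury (6691) it was 4169 and 2863 under median-of-ratios and quantile scaling, 4402 in the fit of the libraries compared, 2115 without uninjured control libraries 1 and S2, and 4804 to 7584 with 1 library left out. At 4 dpi (277) it was 112 without a filter, 451 with a filter of 2 TPM, 11 and 7 under the scalings, 1201 in the fit of the libraries compared, 445 with the replicate block, 2142 without libraries 1 and S2, and 0 to 1748 with 1 library left out. For injury with the inhibitor (64) it was 184 under median-of-ratios scaling, 608 in the fit of the libraries compared, 1514 with the replicate block, 646 without libraries 1 and S2, and 8 to 461. In the interaction (4) it was 7 under quantiles, 7 without libraries 1 and S2, and 1 to 10.

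What the replicate numbers stand for is not stated in the sources used here. Deviations of same-numbered libraries correlated at −0.285 to 0.506 across genes, and those of differently numbered libraries at −0.425 to 0.35. The highest value joined uninjured control library 1 and 4 dpi control library 1. Whether same-numbered libraries share a batch was not tested, and the replicate block was run only as an alternative. Under it C1QTNF4 passed for injury with the inhibitor (−2.37, adjusted p = 0.0194). A fit of the libraries compared called C1QTNF4 at 4 dpi (adjusted p = 0.0459). Without libraries 1 and S2 it was called at 4 dpi (0.0255) and for injury with the inhibitor (0.0416). Quantile scaling called C1QTNF7 for the inhibitor without injury (1.49, adjusted p = 0.0251). TPM give no depth, so values near 0 carry no counting interval.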
